A study of Mus musculus with 4 samples.

Results

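The numbered Zfp genes are mouse zinc finger genes whose symbol is Zfp followed by digits alone. They were taken from the PRO-seq count table by that rule, leaving out Zfp574, Zfp143, Zfp445 and Zfp57, which gave 260 of 12486 genes. The name was given to genes by the zinc finger domains their sequences predict, so the group is held together by nomenclature. Most of its products carry arrays of C2H2 fingers, each of which folds around a zinc ion and reads a few bases of DNA. Many of those that also carry a KRAB domain recruit the corepressor Trim28 and with it histone H3 lysine 9 methylation, often at transposable elements, and genes of this class lie in clusters that arose by tandem duplication. Others act without KRAB at promoters and enhancers, and a few work on RNA, on ribosomes or in ubiquitin transfer.

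The question was which of these genes changed their transcription when one zinc finger protein, Zfp574, was removed. PRO-seq labels the 3′ end of RNA that engaged polymerase extends in isolated nuclei, so its counts follow transcription and not the amount of mRNA. The cells were a diploid mouse embryonic stem cell line (AN3-12, grown with LIF and without feeders) in which Zfp574 carried an N-terminal auxin-inducible degron (AID) and which expressed OsTir1 from the EF1a promoter, a pair that sends the tagged protein to the proteasome once auxin is present. Control cells (0 h, n = 2) were not treated, and depletion cells (n = 2) received 500 µM of the auxin indole-3-acetic acid (IAA) for 6 h, and the labels call the libraries of a group biological replicates. All 4 libraries came from this AID-Zfp574 line, made by Cas9 knock-in into a single-clone Tir1 parental line, so that an effect of auxin itself and an effect of losing Zfp574 cannot be told apart. Parental cells given auxin were not analysed here.

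Total counts were 3298864 and 3616429 for the controls, against 6045216 and 5670904 for the depletion cells. Of 8 embryonic stem cell markers, 7 were counted (Tdgf1 was not in the table), with summed levels of 3700 and 3610 CPM (counts scaled by TMM-adjusted library size) at 0 h and 3710 and 3680 CPM at 6 h. Esrrb and Tfcp2l1, with means of 1764 and 1431 CPM at 0 h, made up most of these sums. The log2 fold changes of the 7 genes ran from -0.21 to 0.08, with 4 below 0. Of 10 markers of other lineages, 4 were in the table, and their sum lay between 9.02 and 13.2 CPM per library, while Cdx2, Col1a1, Gata4, Gata6, Krt18 and T were not in it. The count of Zfp574 itself, whose protein and not whose gene the degron acts on, was 80 and 130 at 0 h and 195 and 219 at 6 h. In CPM, which takes depth into account, these were 24.0 and 35.5 against 32.8 and 39.0, so the groups overlapped. The log2 change was 0.25 (SE 0.14, adjusted p = 0.406, edgeR quasi-likelihood test). In such bulk libraries, fewer cells that transcribe a gene and less transcription per cell cannot be told apart.

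The 260 genes together held 1.57% and 1.58% of the counts at 0 h, and 1.57% and 1.58% at 6 h, so that neither group held the larger share. A filter on low counts left 253 of them for testing. The mean count of these 253 over the 4 libraries ran from 9 to 4300 with a median of 108, against a median of 163 over the 11853 genes tested. Their median gene length was 17.6 kb against 22.2 kb over all genes.

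Per kilobase of annotated gene, Zfp42 and Zfp553 stood apart from the rest. The authors counted reads over transcripts with corrected starts, so the counted length can differ from the annotated length used here. Zfp42, better known as Rex1, is a marker of naive pluripotency, and its density was 38.8 and 41.8 CPM per kb at 0 h and 45.0 and 41.5 CPM per kb at 6 h. Zfp553 had 45.7 and 44.0 CPM per kb at 0 h and 43.8 and 41.7 CPM per kb at 6 h. The ranges of these genes over the 4 libraries overlapped, so their order is not resolved. Zfp367 followed at a mean of 14.4 CPM per kb and Zfp219 at 14.1 CPM per kb, also with overlapping libraries. The median of the members was 1.35 CPM per kb, close to the 1.52 CPM per kb of all genes tested. Zfp553, Zfp367 and Zfp219 were singled out after their values were seen.

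After 6 h of auxin, 7 numbered Zfp genes fell and 2 rose at an adjusted p under 0.05, and the other 244 of the 253 tested did not pass. The genes that fell were Zfp422, Zfp105, Zfp35, Zfp62, Zfp41, Zfp398 and Zfp202, and those that rose were Zfp148 and Zfp710. The log2 fold changes of those that fell lay between -1.89 and -0.83, and those of the genes that rose were 0.26 and 0.38. Lower calls made up 2.77% of the members tested, where 1.40% of all genes tested were called lower. Higher calls made up 0.791% of the members against 1.11% of all genes. At the study's threshold of a 2-fold change, 3 members were lower (Zfp422, Zfp105 and Zfp35), or 1.19% against 0.321% of all genes, and 0 were higher, against 0.00% of all genes. At an unadjusted p under 0.05 in edgeR, 0 members were higher by 2-fold (0.0591% of all genes), and DESeq2 also called 0. Without the fold threshold, an unadjusted p under 0.05 took in 18 members on the lower side (7.11%, against 7.66% of all genes) and 15 on the higher side (5.93%, against 8.53%). These shares describe the group, and no test of the group against other genes was made. Zfp105, Zfp35, Zfp398 and Zfp422 stayed below the threshold in each fit that left out 1 library. Leaving out 1 library moved the calls of all genes as well as those of the members. Without control replicate 1, 7 members were lower (2.77%, against 1.29% of all genes) and 2 were higher (0.791%, against 1.11%). Without control replicate 2, 6 were lower (2.37%, against 1.91%) and 6 were higher (2.37%, against 2.29%). Without depletion replicate 1, 4 were lower (1.58%, against 0.633%) and 1 was higher (0.395%, against 0.177%). Without depletion replicate 2, 5 were lower (1.98%, against 0.675%) and 1 was higher (0.395%, against 0.363%).

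**Figure D1:**
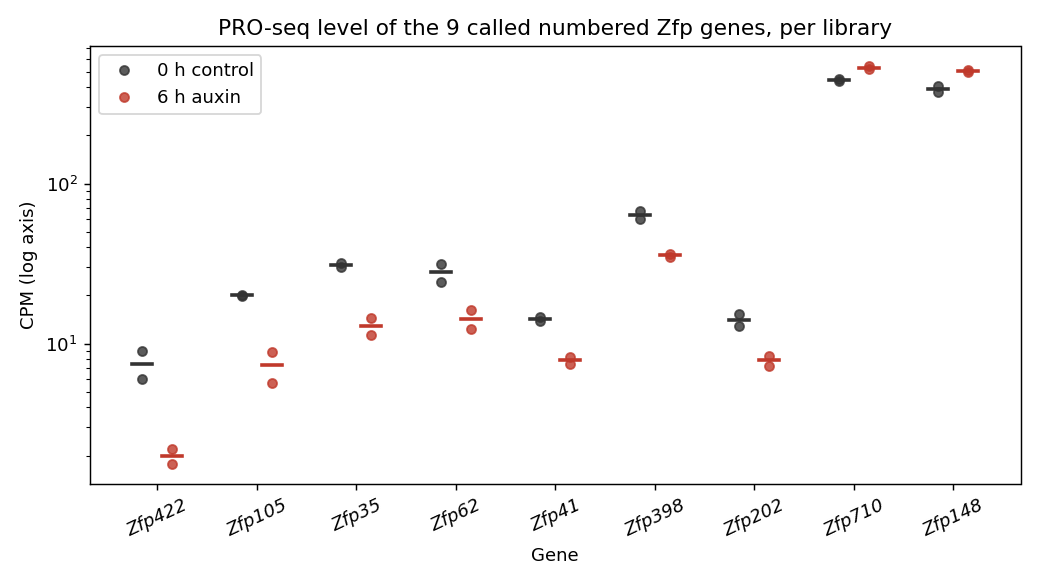
PRO-seq level in CPM (log axis) of the 9 numbered Zfp genes past an adjusted p of 0.05, one point per library (0 h control, dark, n = 2; 6 h auxin, red, n = 2) with bars at the means. In each gene the depletion libraries lie wholly below or wholly above the controls, and the rises of Zfp710 and Zfp148 are smaller on this axis than the falls.

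Zfp422, also known as Krox-26 and studied in tooth development, showed the largest fall of the members tested, on the log2 scale. It had 30 and 22 counts at 0 h and 13 and 10 at 6 h, or 9.02 and 6.00 CPM against 2.18 and 1.78 CPM. Each depletion library lay below each control, although the controls themselves were far apart. Its log2 change was -1.89 (SE 0.34, edgeR adjusted p = 0.000930). The counts were few and the call depended on the test: DESeq2 with its own size factors gave -1.92 with an adjusted p of 0.0847. The cause of this difference was not tested. Zfp422 lies on the minus strand of chromosome 6 (116624016 to 116628999, mm10).

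Zfp105 (chromosome 9, 122923072 to 122931028, plus strand) had 66 and 74 counts at 0 h and 34 and 50 at 6 h. In CPM these were 19.8 and 20.2 against 5.71 and 8.90, so the controls were close together and the depletion libraries were not. The change was -1.46 on the log2 scale (SE 0.20, edgeR adjusted p = 3.67e-05), and it ranged from -1.80 to -1.16 over the other settings that tested it.

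Zfp35, first described as a gene of meiotic male germ cells, lies on chromosome 18 (23989632 to 24005376, plus strand). Its level was 31.9 and 30.0 CPM at 0 h and 14.4 and 11.4 CPM at 6 h, from 106 and 110 counts against 86 and 64. The groups were separated by more than the spread within either, with a log2 change of -1.25 (SE 0.16, edgeR adjusted p = 6.09e-06).

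Zfp62 (chromosome 11, 49203292 to 49218816, plus strand) stood just outside the 2-fold threshold. It had 81 and 116 counts at 0 h and 74 and 91 at 6 h, or 24.3 and 31.7 CPM against 12.4 and 16.2 CPM. No depletion library reached the lower control. The fitted log2 change was -0.98 (SE 0.17, edgeR adjusted p = 0.000523). Both groups were spread widely for this gene. Without depletion replicate 1 the fall was 0.79 on the log2 scale and its adjusted p was 0.0603, which ends the call.

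Zfp398 fell by less than these but with the smallest error of the genes that fell. Its human counterpart, ZER6, is known to interact with estrogen receptor alpha. It had 224 and 221 counts at 0 h and 208 and 204 at 6 h, or 67.3 and 60.3 CPM against 34.9 and 36.3 CPM. Its log2 change was -0.84 (SE 0.11, edgeR adjusted p = 6.09e-06). Raw counts hardly differed between the groups because the depletion libraries were deeper, and the fall appears once depth is taken into account.

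Zfp41 and Zfp202 passed the threshold by less. Zfp41 had 13.8 and 14.7 CPM at 0 h and 8.23 and 7.47 CPM at 6 h, a log2 change of -0.86 (SE 0.20, edgeR adjusted p = 0.0163). Zfp202, whose human counterpart is a SCAN and KRAB repressor of genes of lipid metabolism, had 15.3 and 12.8 CPM at 0 h and 8.40 and 7.30 CPM at 6 h. Its log2 change was -0.83 (SE 0.21, edgeR adjusted p = 0.0254). In both genes the groups did not overlap. In DESeq2 the adjusted p was 0.705 for Zfp41 and 0.807 for Zfp202, at log2 fold changes of -0.86 and -0.84. Over the alternatives Zfp41 lay between -0.96 and -0.79 and Zfp202 between -0.96 and -0.70. Zfp41 also lost its call without control replicate 2 (adjusted p = 0.0686), depletion replicate 1 (0.0974) or depletion replicate 2 (0.166), and Zfp202 without control replicate 1 (0.190), depletion replicate 1 (0.109) or depletion replicate 2 (0.228).

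The members that rose were long, well transcribed genes. Zfp148, which encodes the GC-box binding factor ZBP-89, spans 124 kb of chromosome 16 and had 406 and 372 CPM at 0 h and 499 and 513 CPM at 6 h. The gene rose by 0.38 on the log2 scale (SE 0.05, edgeR adjusted p = 3.71e-05). Zfp710 spans 69.4 kb of chromosome 7 and had 438 and 449 CPM at 0 h and 517 and 544 CPM at 6 h, a log2 change of 0.26 (SE 0.05, edgeR adjusted p = 0.00277). Both depletion libraries lay above both controls in each gene. With each library's trend of counts on gene length removed, Zfp148 kept its call at 0.29 on the log2 scale. Size factors recovered from the mean signal the authors deposited, which their methods tie to a Drosophila spike-in though the recovered values also differ between replicates, lowered Zfp148 to 0.28 (adjusted p = 0.00295). The same factors lowered Zfp710 to 0.15, where it was no longer called (adjusted p = 0.137). Zfp710 also lost its call in DESeq2 (adjusted p = 0.0924), without depletion replicate 1 (0.0547) and without depletion replicate 2 (0.225).

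The recovered factors moved the balance of calls. They shifted the median of all genes from -0.002 to -0.105 on the log2 scale, and that of the members from -0.022 to -0.125. With them 14 members were lower (5.53%, against 5.89% of all genes) and 1 was higher (0.413% of all genes), where scaling by TMM gave 7 and 2. The 7 genes that fell under TMM were among the 14, and Zfp62 passed the 2-fold threshold at -1.08, as 0.481% of all genes did on the lower side. The other 7 (Zfp180, Zfp219, Zfp367, Zfp740, Zfp787, Zfp865 and Zfp958, named after their values were seen) were called under this scaling and under none of the other settings.

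**Figure D2:**
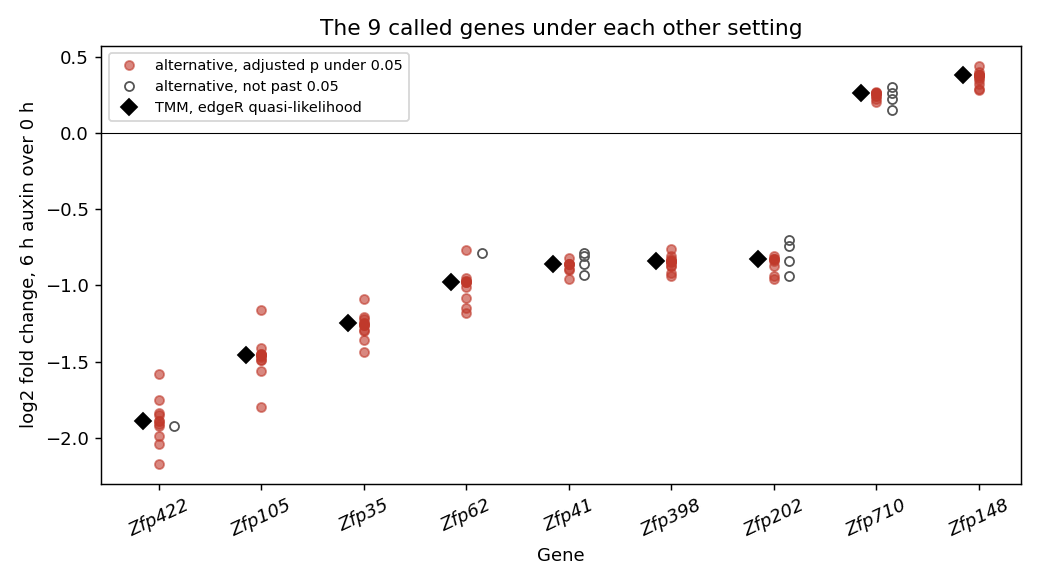
The log2 fold change (6 h auxin over 0 h) of the 9 called genes in the TMM fit (black diamonds) and under each other setting that tested them, filled where the adjusted p was under 0.05 and open where it was not. Zfp105, Zfp35, Zfp398 and Zfp148 have filled points only, and Zfp41, Zfp202 and Zfp710 have 4 open points each.

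Most of the other 244 members lay close to 0. Their log2 fold changes ran from -0.76 to 0.76 with a median of -0.01. Of all 253 members tested, 136 lay below 0 (53.8%, against 50.6% of all genes), 168 lay within 0.2 of 0, 11 were below -0.5 and 3 were above 0.5. All genes tested had a similar spread, with quartiles of -0.127 and 0.109 against -0.163 and 0.102 for the members. Their values also reached further down than up, from -3.47 to 1.44. Both depletion libraries were below both controls in 65 members (25.7%, against 22.9% of all genes) and above both in 54 (21.3%, against 23.4%). The median of the members was -0.022, and it was -0.007 without control replicate 1. Depth set how small a change could be seen: the median standard error was 0.26 on the log2 scale in the 64 members with a mean count under 50, 0.15 in the 109 with 50 to 200, and 0.08 in the 80 with 200 or more.

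**Figure D3:**
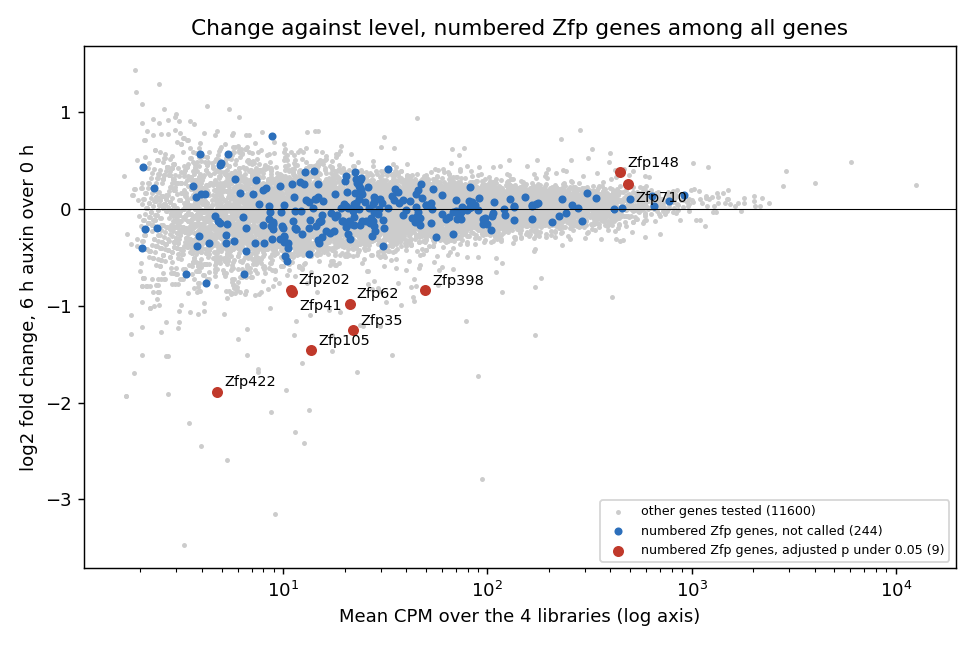
The log2 fold change (6 h auxin over 0 h) against mean CPM over the 4 libraries (log axis) for the 253 numbered Zfp genes tested (blue, with the 9 called in red) and the 11600 other genes tested (grey). The members that fell lie at low to middle levels, the members that rose at high levels, and the scatter narrows as the level rises.

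Among the members that did not pass, the highest value was that of Zfp791, with 21 and 25 counts at 0 h and 65 and 64 at 6 h. On the log2 scale its change was 0.76 (SE 0.23, edgeR adjusted p = 0.0756). Zfp964 (0.57), Zfp747 (0.48), Zfp58 (0.46) and Zfp644 (0.42) came next among members whose mean count reached 20, and none of them passed. The value of Zfp747, with 10 and 19 counts at 0 h, ranged from 0.16 (control replicate 1 left out) to 0.94 (control replicate 2 left out), and that of Zfp964 was 0.32 without control replicate 2 or depletion replicate 2. At the low end, Zfp273 had a log2 fold change of -0.67, Zfp952 -0.54, Zfp418 -0.49 and Zfp692 -0.46. The controls of Zfp418 were far apart, at 26 and 58 counts, and its value was -0.89 without control replicate 1 (adjusted p = 0.0274), while without control replicate 2 the log2 value was 0.13 (adjusted p = 0.910).

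The filter removed 7 members, all with at most 13 counts in any library, among them Zfp113, Zfp579, Zfp768 and Zfp954. Zfp629 had 13 and 6 counts at 0 h and 2 and 4 at 6 h. In a fit with no filter its log2 fold change was -2.33 (edgeR adjusted p = 0.0436), a value that rests on 25 counts in all.

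The members were also grouped by role, in lists so short that few or no calls would come at the shares of all genes. Of 9 listed regulators linked to pluripotency and the embryonic stem cell state, 0 passed in either direction (1.40% of all genes lower, 1.11% higher). Their median log2 fold change was -0.06, and the list need not be complete. Zfp42 was at 0.10 with a standard error of 0.05, from 480 ± 25.4 CPM (SD, n = 2) at 0 h to 515 ± 29.0 CPM (SD, n = 2) at 6 h. Zfp281, a GC-rich promoter factor of the pluripotency network, was at -0.07 and Zfp706 at 0.02. Zfp296 was at -0.67 with a standard error of 0.37, on 11 and 18 counts at 0 h and 16 and 14 at 6 h, too few to place it. Zfp462, which is needed for heterochromatin at developmental genes, had the highest CPM of all members, 867 ± 4.09 CPM (SD, n = 2) at 0 h and 961 ± 8.94 CPM (SD, n = 2) at 6 h. Its log2 change was 0.15 (SE 0.04, edgeR adjusted p = 0.0737), and limma-voom gave an adjusted p of 0.0232.

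Of 9 listed KRAB factors that silence retroelements, other repeats or, for Zfp568, a gene transcript, 4 were in the table. Of these, 0 passed in either direction (1.40% of all genes lower, 1.11% higher). Zfp809, which silences murine leukaemia virus through its primer binding site, was at 0.04 with a standard error of 0.11. Zfp568, a repressor of a placental Igf2 transcript, was at 0.11 with a standard error of 0.05. Zfp708 was at 0.28 with a standard error of 0.20. Zfp932, a repressor of endogenous retroviruses, was at -0.76 with a standard error of 0.32 (edgeR adjusted p = 0.231), on 19 and 18 counts at 0 h and 18 in both libraries at 6 h.

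Of 10 counted members with roles in RNA, ribosomes or ubiquitin, 0 passed (1.40% of all genes lower, 1.11% higher), and their median was 0.03. Zfp622, a factor of 60S ribosomal subunit maturation, was at 0.02 with a standard error of 0.08. Zfp593, another 60S assembly factor, had the highest value of this group at 0.31, with a standard error of 0.15 (edgeR adjusted p = 0.303). Zfp598, the ubiquitin ligase that marks collided ribosomes, was at 0.05, and Zfp36, which speeds the decay of mRNAs with AU-rich elements, was at 0.01.

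Of 14 tested members that act on chromatin or as general transcription regulators, 1 passed (1.40% of all genes lower, 1.11% higher), Zfp148, described above. Their median was 0.05. Zfp532 and Zfp592, which share the Zmynd8 complex with Zfp687, were at 0.14 and 0.10, and Zfp687 was at -0.06. Zfp410, an activator of Chd4, was at 0.07 with a standard error of 0.14. Zfp423 and Zfp704, among the 5 members with the highest CPM, were at 0.04 and 0.09.

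The corepressor machinery that KRAB factors work through showed no call, where 1.40% of all genes were called lower and 1.11% higher. Of 20 listed genes that are not Zfp genes, including Trim28, the H3K9 methyltransferase gene Setdb1 and the HP1 genes Cbx1, Cbx3 and Cbx5, 0 passed in either direction (edgeR, all genes tested), and their median log2 fold change was -0.03. Trim28 was at -0.07 (edgeR adjusted p = 0.603) and Setdb1 at -0.04. The lowest value was that of Atf7ip, a Setdb1 partner, at -0.29 (edgeR adjusted p = 0.206).

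Genomic position was examined next, since neighbouring Zfp genes are often close copies. Members separated by at most 250 kb were joined, and 98 of the members fell into 14 clusters of at least 4 genes. Of the 95 clustered members tested, 1 was called, on the lower side, where 1.40% of all genes were called lower and 1.11% higher. That gene was Zfp398, in a cluster of 7 members on chromosome 6 (47819266 to 48086593). Its neighbour Zfp786 was at -0.35 with a standard error of 0.25, Zfp282 on the other side was at 0.03 with a standard error of 0.15, and Zfp777 was at 0.12 (these neighbours were named after their values were seen). The cluster with the highest median lay on chromosome 13 (67069399 to 67827002), with 11 members tested, a median log2 fold change of 0.23, and 0 calls. Both depletion libraries lay above both controls in 7 of these 11 genes, where 23.4% of all genes tested did so. They lay below both controls in 2 (22.9% of all genes tested), of which Zfp273 was the lower. This cluster was picked after its values were seen. Chromosome 7 held 66 members, more than any other, with a median of -0.05 against -0.02 for all tested genes of that chromosome. Only reads with a single best position were counted, so genes with near-identical copies in a cluster can be undercounted in all libraries. None of the 9 called members overlapped another counted gene on its strand, started within 1 kb of an opposite counted gene, or lay within 5 kb downstream of one on its strand.

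**Figure D4:**
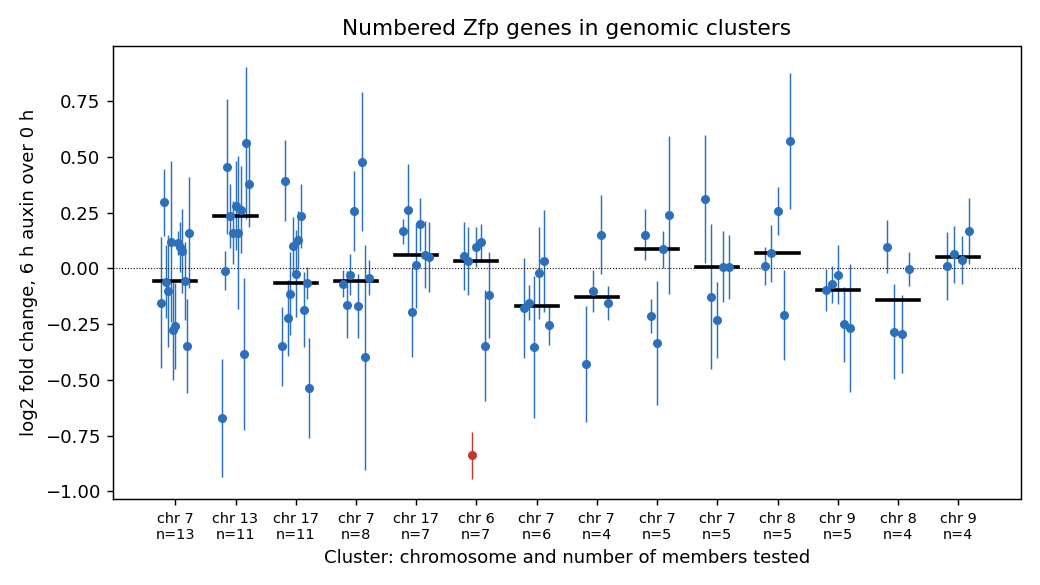
The log2 fold change (6 h auxin over 0 h) with its standard error for each tested member of the 14 genomic clusters, ordered by cluster size and named by chromosome, with the cluster median as a black bar. Zfp398 on chromosome 6 is the single called gene (red), while the other genes of its cluster lie between -0.35 and 0.12.

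Fold change varied with gene length among the members. Over the 252 with an annotated length, length and log2 fold change had a Spearman rho of 0.244, a description across genes that share the same 4 libraries. Removing each library's trend on length left the same 7 lower calls (1.22% of all genes), the same 3 lower by 2-fold (0.304%) and the same 2 higher calls (0.506%). Under DESeq2 4 members were lower (0.515% of all genes), 2 of them by 2-fold (0.236%), and 1 was higher (0.118%). With the replicate number as a block the 7 lower members were unchanged (2.53% of all genes), with 3 lower by 2-fold (0.363%), and 7 were higher (3.09%), 0 of them by 2-fold (0.00844%).

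Promoters of the members were compared with those of the other genes that fell. Among 35 genes outside the group that were lower by 2-fold, 32 had a RefSeq promoter window (250 bases before to 50 after an annotated start, GRCm38.p6, the patch release of the mm10 assembly). Words of 7 bases, on either strand, were kept where they occurred in at least 25% of these 32 genes and at least 5 times as often as in other genes. This gave 11 words that overlap each other, all with TAG on one strand. Among all genes with a window, the word CCATAGA was found in 2.49% of them, while the related word ACCATAG was found in 2.04% of them. The overlapping word CATAGAG was present in 2.82% of these genes, and the word ATAGAGA was present in 2.60%. Within the words that hold a CTAG core, the word GGCTAGA occurred in 4.59% of these genes, whereas the word GCCTAGA occurred in 4.38% of them. The word CTCTAGC was the most frequent, at 5.88% of these genes, followed by the word CTAGAGC, which was found in 5.29%. The word CTAGCCA was found in 4.80% of these genes, the word CGCTCTA was seen in 3.28% of them, and the word CTCTCTA was seen in 4.63%. By this choice 29 of the 32 genes held at least 1 of them. At least 1 word was found in 25.5% of all 9295 genes with a window and in 61 of 213 members tested with a window (28.6%). Of the 7 members that fell, 5 had a window and 4 of these held a word, as did 1 of the 2 that rose (Zfp148, in 1 of its annotated windows). The words and genes were chosen after the values were seen. The window with a match is shown for these 5 genes so that the matches can be read in place, in lower case with the matching words in capitals, a word on the other strand appearing as its reverse complement.
Zfp422 (chr6:116628652-116628951, minus strand): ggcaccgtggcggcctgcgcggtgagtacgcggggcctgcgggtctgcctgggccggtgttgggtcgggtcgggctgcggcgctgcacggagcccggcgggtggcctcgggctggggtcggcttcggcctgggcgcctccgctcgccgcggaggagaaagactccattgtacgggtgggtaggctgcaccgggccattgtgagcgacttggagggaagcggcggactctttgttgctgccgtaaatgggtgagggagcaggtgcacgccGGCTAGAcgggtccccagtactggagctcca
Zfp105 (chr9:122922828-122923127, plus strand): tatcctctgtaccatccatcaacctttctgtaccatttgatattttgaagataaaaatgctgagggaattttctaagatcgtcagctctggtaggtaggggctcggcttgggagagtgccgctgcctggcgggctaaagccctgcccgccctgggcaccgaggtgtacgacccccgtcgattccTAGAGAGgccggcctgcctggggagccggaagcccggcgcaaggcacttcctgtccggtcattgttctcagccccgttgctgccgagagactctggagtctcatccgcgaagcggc
Zfp398 (chr6:47835411-47835710, plus strand): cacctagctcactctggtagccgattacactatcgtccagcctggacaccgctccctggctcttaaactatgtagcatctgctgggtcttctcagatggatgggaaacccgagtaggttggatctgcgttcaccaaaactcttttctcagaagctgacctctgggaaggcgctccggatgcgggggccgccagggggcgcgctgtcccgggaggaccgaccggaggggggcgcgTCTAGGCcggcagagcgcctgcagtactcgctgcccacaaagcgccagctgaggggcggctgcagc
Zfp202 (chr9:40192066-40192365, plus strand): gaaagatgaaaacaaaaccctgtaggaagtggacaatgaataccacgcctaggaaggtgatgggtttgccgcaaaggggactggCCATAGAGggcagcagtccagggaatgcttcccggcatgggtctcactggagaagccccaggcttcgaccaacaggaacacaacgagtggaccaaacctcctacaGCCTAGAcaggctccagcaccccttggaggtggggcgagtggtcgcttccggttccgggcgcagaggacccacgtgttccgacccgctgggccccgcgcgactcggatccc
Zfp148 (chr16:33380525-33380824, plus strand): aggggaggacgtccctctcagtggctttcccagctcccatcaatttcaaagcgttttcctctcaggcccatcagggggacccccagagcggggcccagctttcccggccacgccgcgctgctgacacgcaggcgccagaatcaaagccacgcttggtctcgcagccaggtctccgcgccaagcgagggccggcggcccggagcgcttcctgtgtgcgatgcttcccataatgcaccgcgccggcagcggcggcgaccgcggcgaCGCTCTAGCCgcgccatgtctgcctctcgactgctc

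The words differed between the genes. Zfp422 and Zfp148, which moved in opposite directions, both held GGCTAGA, the word found in the largest number of the other genes that fell (13 of 32, or 40.6%). Zfp398 and Zfp202 held GCCTAGA. Zfp202 also held CCATAGA and CATAGAG, and Zfp105 held CTCTCTA. Among the genes shown, Zfp148, which rose, had the most matches, with 4 that overlap each other in 1 window. Zfp202 had 3 matches, and Zfp422, Zfp105 and Zfp398 had 1 each. Zfp62 had windows at 2 annotated starts and a word in neither. A match of 7 letters is a description of these windows, which follow annotated starts and not the corrected starts used for counting, and binding of Zfp574 was not analysed here.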

How the data were processed

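PRO-seq libraries (2 at 0 h, 2 after 6 h of auxin) were grouped by their labels. The authors trimmed reads with cutadapt 1.18, mapped them to mm10 with Bowtie 1.2.2, kept single best positions, collapsed them by unique molecular identifier and counted 3′ ends of nascent RNA over genes with CAGE-corrected starts. Counts were deposited as integers per gene, after the collapse and with no normalization. Of the authors' deposited DESeq2 table, which also holds fold changes, errors and p-values that were not used, the mean normalized signal alone served to recover the size factors (0.699 and 0.740 for controls, 1.32 and 1.24 for depletion).

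Genes were filtered with filterByExpr (minimum count 10, minimum total 15), which left 11853 genes. Counts were scaled with TMM and modelled on condition alone by glmQLFit and glmQLFTest of edgeR 4.0.16 (R 4.3.3, two-sided), with Benjamini-Hochberg adjustment over all genes tested. All adjusted p-values are from this fit unless DESeq2 1.42.0 or limma 3.58.1 (voom) is named. CPM uses TMM-adjusted library sizes, and standard errors are those implied by the F statistic. Positions and lengths are from GENCODE M21, which matched 259 of the 260 members, all protein-coding (Zfp91 had no match). Named genes were all called members, the 10 lowest and 5 highest log2 fold changes with a mean count of at least 20, the 5 highest CPM, Zfp62, and members of the role lists. Alternatives covered scaling, test, filter, a replicate block, gene length and leaving out each library. The members, lists and tests were chosen with earlier results of these data known. The promoter word search was added after the values were seen. Replicates differed by more than sampling noise (chi-square per degree of freedom 1.88 and 1.49), and the scripts were tested on simulated data. Standard errors rest on 2 libraries per group and on a dispersion that the fit moderates across the genes tested.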

Additional observations from a re-analysis of the deposited data

How the results depend on the processing

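The 3 members lower by 2-fold (Zfp422, Zfp105 and Zfp35) were called again under every scaling, limma-voom, the replicate block, no filter, the length correction and each fit without 1 library. DESeq2 with its own size factors called Zfp105 and Zfp35. With a mean count of at least 100, Zfp398 kept its call at -0.85 on the log2 scale, while the other genes that fell were not tested. The median of the 133 members tested there was 0.002. Without a fold threshold, the recovered factors gave 14 lower and 1 higher, and DESeq2 gave 4 lower and 1 higher. The cause was not tested for DESeq2. The median of the members was -0.056 with library totals and -0.125 with the recovered factors. That of all genes tested was -0.036 and -0.105. TMM centres the typical gene near 0, so a change shared by most genes would not show under it. Whether there was such a change was not tested.

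The labels do not say whether libraries of the same replicate number were prepared together. The differences between replicates correlated at 0.0344 across conditions, which cannot decide this, since counting noise also enters those differences. With the replicate block the higher members numbered 7, adding Zfp229 (outside the rule for named genes), Zfp462, Zfp532, Zfp644 and Zfp791, and the 7 lower members were those of the fit without it.

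In the fits without 1 library each, where the lone library of a condition is assumed to vary like the other condition, the lower members numbered from 4 to 7 (0.633% to 1.91% of all genes) and the higher from 1 to 6 (0.177% to 2.29% of all genes). The median ranged from -0.023 to -0.007. Among 52 named members under 13 alternatives, 579 results kept their direction and side of the threshold, 14 were weaker, 9 were stronger, 55 values that were not called changed sign, and none of the calls did. With 2 libraries per group, members under a mean count of 50 had a median standard error of 0.26, against 0.08 in those with 200 or more.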
